A study of Mus musculus with 26 samples.

Results

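Loss of a single domain of Tet3 was set against the genotype labelled as loss of the whole gene, in fully grown mouse oocytes, across all measured genes. LCD KO 6 and 7, the libraries whose oocytes had lost the low-complexity domain (LCD) of Tet3, were compared with the pair labelled Tet3 KO 1 and 2. These 4 of the 26 deposited libraries (24 distinct) were chosen because all were made in batch 3 and all carried Zp3-Cre, a transgene that expresses Cre recombinase in growing oocytes. The LCD KO genotype was Tet3 LCDf/f; Zp3-Cre and the other genotype was Tet3f/f; Zp3-Cre, where f/f marks a pair of floxed alleles. The other 6 libraries of batch 3 lent an estimate of spread and reference levels. They were WT 5 and 6 (Tet3 LCDf/f without Cre), Dnmt3a KO 1 and 2 (Dnmt3af/f; Zp3-Cre) and DKO 1 and 2 (Dnmt3af/f, Tet3 LCDf/f; Zp3-Cre). No library carried the Tet3f/f allele without Cre, so the labelled Tet3 KO has no control of its own allele here. Each library was made from a pool of 10 germinal vesicle (GV) oocytes, the stage arrested before meiosis resumes. The labels call the pools biological replicates and name no animals, strain or age, so p-values measure the spread between these pools, which may be technical. Libraries of batches 1 and 2 served as further comparisons: WT 1 to 4, LCD KO 1 to 5 and HD mutant 1 to 3 (Tet3 LCD HD Mutf/f; Zp3-Cre), of which WT 4, LCD KO 4 and 5 and the HD mutants were batch 2. Of 24450 features, 11160 genes passed the filter on low counts and were tested.

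Tet3 is a dioxygenase that oxidises methylated cytosine in CG dinucleotides and is the main enzyme of its family in the oocyte and zygote. Dnmt3a, with its cofactor Dnmt3l, places most of the methylation that the oocyte genome gains during growth, largely over transcribed gene bodies. The fully grown GV oocyte is close to transcriptional silence and lives from stored maternal RNA, so its RNA content records transcription during growth together with storage and decay. In pools of oocytes, fewer cells that express a gene and less RNA of that gene per cell cannot be told apart.

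The 10 libraries of batch 3 held 2558479 to 4144414 counts, and 13761 to 14535 genes were detected in each. One count corresponded to 0.243 to 0.413 CPM (the unit of level used here: counts scaled by library size and by TMM factors of 0.929 to 1.06). Rn45s, a ribosomal RNA precursor, took 0.0646% to 0.227% of counts. The Cre sequence had 64 and 82 counts in LCD KO and 69 and 55 in the labelled Tet3 KO, and 0 in both WT libraries. Mt1, a metallothionein, was at 250.3 and 195 CPM in LCD KO, 219 and 217 in the labelled Tet3 KO and 1.07 and 1.21 in WT, with no difference by the test between the compared groups (log2 fold change 0.03 ± 0.24, adjusted p = 0.97). Among the Zp3-Cre libraries of the other batches, LCD KO 1 to 3 had 44 to 58 Cre counts. LCD KO 4 and 5 and HD mutant 1 to 3 had 0, which goes against their labels. WT 4 also had 0, so no library of batch 2 had Cre counts, and the reason was not tested. Mt1 was higher in LCD KO than in WT over batches 1 and 2 (log2 fold change 8.07 ± 0.27, adjusted p = 1.58e-12). In batch 1 alone its log2 fold change was 8.9 ± 0.28. On a common scaling of the 22 libraries with a stated batch, LCD KO 4 and 5 had 170 and 207 CPM of Tet3. LCD KO 1 to 3 had 43 to 58.5 and WT 1 to 3 had 184 to 266. WT 4, the WT library of batch 2, had 438 CPM of Tet3. Klf10 was at 65.8 and 57.7 CPM in LCD KO 4 and 5 and 5.34 in WT 4. In LCD KO 1 to 3 it was at 74.4 to 100. Results that rest on LCD KO 4 and 5 are given with and without them. The GFP sequence had 80 and 39 counts in LCD KO, 9 and 0 in the labelled Tet3 KO, 120 and 60 in DKO and 5 and 0 in Dnmt3a KO (log2 fold change 3.97 ± 1.02 between the compared groups, adjusted p = 0.0694). GFP was called in several other fits, among them those with no filter on low counts (adjusted p = 1.1e-08), over 22 libraries (0.0183) and without labelled Tet3 KO 1 (0.0467). The 2 libraries of each compared group differed beyond sampling noise (chi-square divided by its degrees of freedom, 9.7 for LCD KO and 8.1 for the labelled Tet3 KO). The columns labelled TKO repeated the labelled Tet3 KO columns in all 24450 features and were not used.

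Oocyte markers were abundant in all 4 libraries: the 14 of them summed to 24330 and 21860 CPM in LCD KO and 26540 and 23120 in the labelled Tet3 KO. The 17 granulosa or cumulus markers summed to 121 and 118 CPM against 127 and 95.1, with Ptx3 and Tnfaip6 at 0. The 10 markers of theca or stroma summed to 7.10 and 5.11 CPM in LCD KO and 2.57 and 0.278 in the labelled Tet3 KO, with Cyp17a1, Lum, Acta2 and Insl3 at 0. The 8 markers of blood, immune cells or epithelium summed to 123 and 122 CPM against 107 and 119, with Hba-a1, Hbb-b1 and Cd3e at 0. Ms4a1 made up most of the last sum, at 119 and 113 CPM against 103 and 116. Dcn, which encodes the matrix proteoglycan decorin, was the 1 tested marker of theca or stroma and was called higher in LCD KO. Whether such cells had a part in any result was not tested.

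The altered genes were measured first, because they check the labels. Tet3 stood at 61.1 and 83.3 CPM in LCD KO 6 and 7, 291 and 406 in the labelled Tet3 KO 1 and 2 and 178 and 247 in WT 5 and 6. The library pairs did not overlap: both labelled Tet3 KO libraries lay above both WT libraries, and LCD KO lay below them. Tet3 was lower in LCD KO than in the labelled Tet3 KO by edgeR's quasi-likelihood test with Benjamini-Hochberg adjustment over all genes (log2 fold change -2.27 ± 0.28, adjusted p = 0.000115). Against WT, the labelled Tet3 KO had a difference of 0.71 ± 0.26 (adjusted p = 0.359), so the count of the gene named in the label was not lower there. A count summed over the gene cannot show which exons its reads came from. Dnmt3a, the de novo methyltransferase, was at 464 and 410.4 CPM in LCD KO and 351 and 391 in WT, but at 158 and 119 in the labelled Tet3 KO. That last pair was close to Dnmt3a KO, at 149 and 121 CPM, and above DKO, at 112 and 111. Dnmt3a was higher in LCD KO (log2 fold change 1.66 ± 0.22, adjusted p = 0.000221), and against Dnmt3a KO the labelled Tet3 KO differed by 0.04 ± 0.22 (adjusted p = 0.965). In these libraries the Tet3 count was thus not lowered, though the label names its loss, and Dnmt3a was low, which the label does not name. The reason was not tested. They are called the libraries labelled Tet3 KO, or labelled Tet3 KO, throughout.

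The same fit allowed each compared group to be set against the others. Between labelled Tet3 KO and Dnmt3a KO, 34 genes were called (0.305% of those tested; 55 by DESeq2 and 49 in a fit over 22 libraries). Between labelled Tet3 KO and WT 114 genes were called (1.02%), and between LCD KO and WT 88 (0.789%; 142 by DESeq2 and 166 over 22 libraries). These comparisons share libraries with each other and with the one of LCD KO and labelled Tet3 KO, so their gene lists are not compared.

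Klf10 and Pnpla3 also separated the groups. Klf10, a Kruppel-like transcription factor induced by TGF-beta, was at 78.8 and 94.9 CPM in LCD KO and 14.4 and 11.7 in the labelled Tet3 KO, a rise that passed the test (log2 fold change 2.73 ± 0.26, adjusted p = 5.85e-06). Its WT level was 8.19 and 7.83 CPM and its Dnmt3a KO level 12.4 and 12.2, whereas DKO stood at 111 and 126. The 2 groups that carried the LCDf/f allele with Cre were thus high, and the 3 others were low. Pnpla3, a patatin-like phospholipase that acts on triacylglycerol and retinyl esters, was at 692 and 814 CPM in LCD KO and 2.82 and 2.5 in the labelled Tet3 KO, from 1948 and 3029 counts against 11 and 9. WT was at 359.8 and 475 CPM, Dnmt3a KO at 316 and 364 and DKO at 299.9 and 345. The low pair was the labelled Tet3 KO alone. The log2 fold change was 8.12 ± 0.32 (adjusted p = 1.07e-11), the smallest p of all genes tested. On a common scaling of the 22 libraries with a stated batch, the 20 libraries other than the labelled Tet3 KO, HD mutants included, ranged from 265 to 1370 CPM for Pnpla3, and the labelled Tet3 KO libraries were at 2.54 and 2.21.

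**Figure D1:**
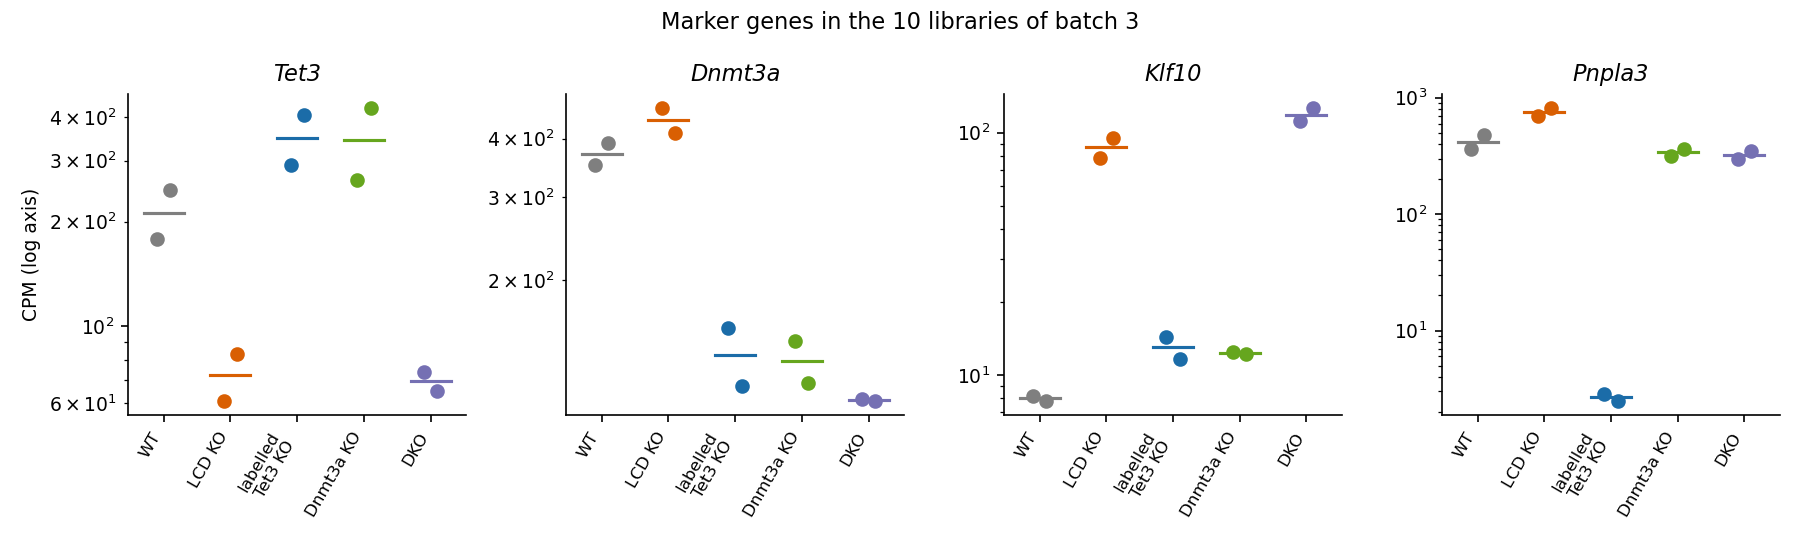
Levels of Tet3, Dnmt3a, Klf10 and Pnpla3 in CPM (log axis) in the 10 libraries of batch 3, with 1 point per library and a line at the group mean (n = 2). Tet3 is low in LCD KO and DKO, Dnmt3a is low in labelled Tet3 KO, Dnmt3a KO and DKO, Klf10 is high in LCD KO and DKO, and Pnpla3 is low in labelled Tet3 KO alone.

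The promoters of Pnpla3, the gene with the smallest p, and of Bfsp1, the gene with the largest fall, are shown because both enzymes studied act on CG dinucleotides. Prr15l had a larger log2 fold change than Pnpla3 (8.35, from 0 counts in the labelled Tet3 KO) but no window. Each promoter shown is the 250 bases before the annotated start in RefSeq (build GRCm38.p6, whereas the counts were made on mm9), in lower case with every CG in capitals. Pnpla3 lies on the plus strand with its window at chr15:84167566-84167815, and Bfsp1 on the minus strand with its window at chr2:143863174-143863423.
Pnpla3: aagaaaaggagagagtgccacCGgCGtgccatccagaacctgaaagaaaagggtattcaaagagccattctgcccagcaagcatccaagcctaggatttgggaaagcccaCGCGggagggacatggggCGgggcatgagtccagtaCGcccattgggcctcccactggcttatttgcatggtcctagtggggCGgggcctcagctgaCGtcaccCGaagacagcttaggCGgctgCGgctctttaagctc
Bfsp1: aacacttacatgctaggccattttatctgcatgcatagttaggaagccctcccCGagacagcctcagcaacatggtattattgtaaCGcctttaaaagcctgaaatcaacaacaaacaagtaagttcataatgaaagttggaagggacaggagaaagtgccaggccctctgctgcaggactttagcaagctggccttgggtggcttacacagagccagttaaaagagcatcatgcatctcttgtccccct
The Pnpla3 window held 11 CG and the Bfsp1 window 2. CG reads the same on both strands, and 98.4% of the windows of tested genes held at least 1, with a median of 16 and 5 or fewer in 15.6%. The windows of Tet3 and of Dnmt3a (the first of its 3) held 17 and 38. Klf10 and Prr15l had no window in the table. Windows were found for 74.8% of the genes called higher and 73.3% of those called lower, under the 80% needed for a comparison of the sets, so none was made. No methylation was measured in these libraries.

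Across all genes, 449 differed between LCD KO and the labelled Tet3 KO (adjusted p below 0.05, 4.02% of 11160 tested), 254 of them higher in LCD KO (2.28%) and 195 lower (1.75%). DESeq2 called 490. At an unadjusted p below 0.05, 1895 genes passed. The called genes had a median absolute log2 fold change of 1.52, against a median signed change of 0.00182 over all genes tested. At least 2-fold separated 401 of them, 235 higher and 166 lower, and at least 8-fold separated 49 and 22. In all 449 the 2 libraries of one group lay outside the range of the other, as they did in 51.2% of all genes tested. Among the called genes, 109 averaged at least 100 CPM in the higher group, 7 had 0 counts in both labelled Tet3 KO libraries and 4 had 0 in both LCD KO libraries. Each called gene was put on the side whose mean lay nearer the WT mean on the log2(CPM + 1) scale, also where WT lay between the groups. No such share was computed over all genes. In the higher set it lay nearer LCD KO for 140 genes and nearer the labelled Tet3 KO for 114. In the lower set it lay nearer LCD KO for 84 and nearer the labelled Tet3 KO for 111. The count depended on the pairs being complete: leaving out 1 library called 134 genes without labelled Tet3 KO 1, 138 without labelled Tet3 KO 2, 151 without LCD KO 6 and 224 without LCD KO 7. The lone library was then taken to vary like the other groups. Of 65 called genes named below, 26 kept the call and the direction in each of these fits and in every other alternative run, among them the 4 markers, Pxdn, Gsto2, Rpl37rt, Bfsp1 and Mtfr2; 0 reversed, and the genes that lost the call are named with their groups.

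**Figure D2:**
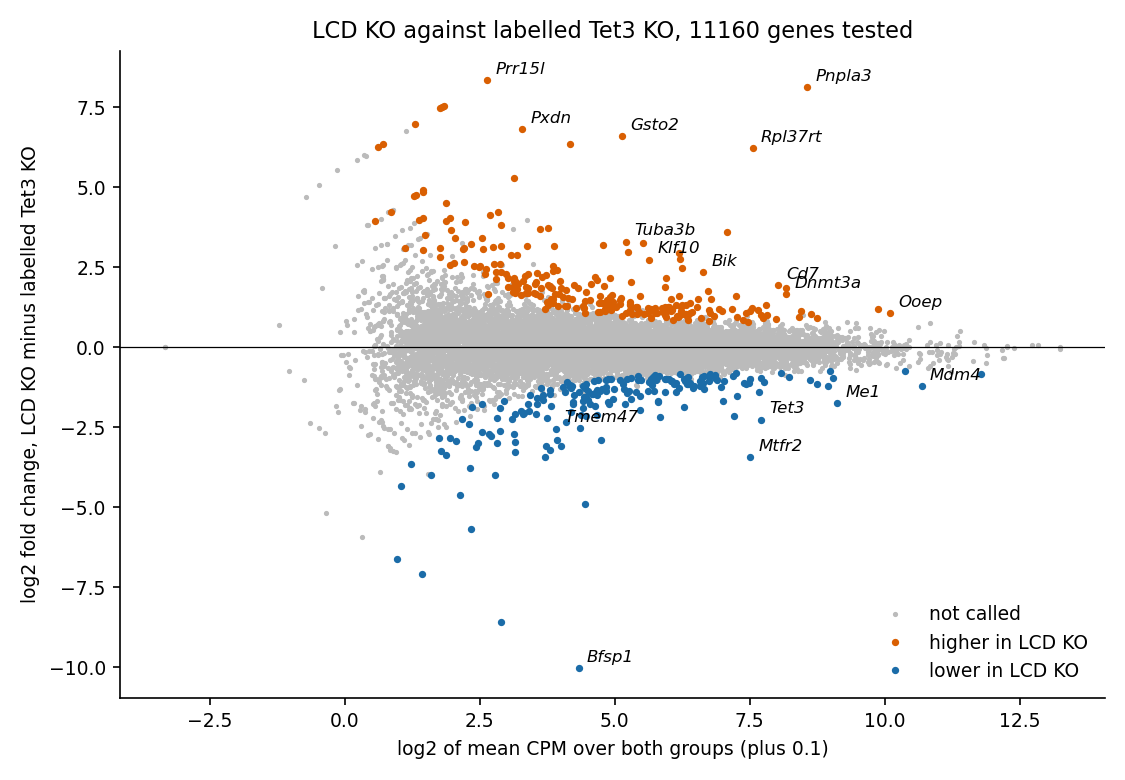
Log2 fold change (LCD KO minus labelled Tet3 KO) against log2 of the mean CPM over both groups, 1 point for each of 11160 genes, with the 254 genes called higher and the 195 called lower in colour. Pnpla3 and Rpl37rt stand apart at high level on the upper side and Bfsp1 on the lower side. Fold changes of genes at 0 in a group depend on a prior count.

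Among called genes with at least 5 CPM in the higher group and a regular symbol (predicted genes and copies of ribosomal protein genes such as Rpl37rt, described further on, are left out), the 12 largest rises in LCD KO were mostly genes at or near 0 in the labelled Tet3 KO. Of these 12, Pnpla3 alone was above 100 CPM. A ranking by fold change favours genes near 0 in the lower group. Gsto2, a glutathione transferase of the omega class, was at 96.9 and 41.1 CPM in LCD KO and 0 and 1.39 in the labelled Tet3 KO (log2 fold change 6.60 ± 0.63, adjusted p = 3.99e-05). WT, at 46.3 and 33.4 CPM, Dnmt3a KO, at 39.2 and 41.3, and DKO, at 29.7 and 26.7, were on the LCD KO side. Pxdn, a peroxidase that crosslinks collagen IV, was at 17 and 21.2 CPM in LCD KO from 48 and 79 counts and had 1 count in the labelled Tet3 KO. The ratio was 146 (95% exact counting interval 25.7 to 5800). Unlike Pnpla3 and Gsto2, Pxdn was also at 0 in both Dnmt3a KO libraries, while WT was at 12.5 and 10.2 CPM and DKO at 17.8 and 9.92. In libraries outside the comparison, it was lower in Dnmt3a KO than in WT (adjusted p = 0.000401) and higher in DKO than in Dnmt3a KO (adjusted p = 0.000254). Trim6, a ubiquitin ligase, was likewise low in the labelled Tet3 KO and Dnmt3a KO: 6.04 and 7.79 CPM in LCD KO, 0 and 0.556 in the labelled Tet3 KO, 1.78 and 2.71 in WT, 0.413 and 0 in Dnmt3a KO and 7.64 and 8.01 in DKO (adjusted p = 0.00611). Its ratio was 26.4 (95% exact counting interval 6.9 to 224).

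Genes with 0 counts in both labelled Tet3 KO libraries give a lower bound, computed against a floor of 3 counts over the group that covers counting error only. Prr15l, at 8.88 and 15.6 CPM in LCD KO, was at least 31.7-fold higher (adjusted p = 0.00379). Pdgfrl, a protein related to PDGF receptors, was at 4.97 and 8.87 CPM and at least 18-fold higher (adjusted p = 0.00275). Slc17a6, a vesicular glutamate transporter, was at 6.39 and 7.26 CPM, and Scn3a, a sodium channel subunit, at 4.26 and 8.87 CPM, each at least 17.2-fold higher (adjusted p = 0.00372 and 0.0128). WT lay on the LCD KO side for all 4: Prr15l was at 1.78 and 7.23 CPM, Pdgfrl at 11.8 and 3.61, Slc17a6 at 3.92 and 3.61 and Scn3a at 1.78 and 8.13. Scn3a lost the call without LCD KO 7 or either labelled Tet3 KO library (adjusted p up to 0.104), and Slc17a6 only when all 7 LCD KO libraries were fitted with a batch term (adjusted p = 0.118). Sectm1a was at 28.8 and 41.9 CPM in LCD KO against 0.77 and 0 (ratio 90.6 (95% exact counting interval 30.6 to 442), adjusted p = 0.00543), with WT in between at 2.49 and 6.93. Myocd, a coactivator of serum response factor, was at 9.23 and 24.7 CPM against 0 and 0.834 (ratio 45.1 (95% exact counting interval 15.1 to 222), adjusted p = 0.00064). In batches 1 and 2 Myocd had the opposite sign, lower in LCD KO than in WT (log2 fold change -1.13, adjusted p = 0.000709). In batch 1 alone Myocd was at -1.28 (adjusted p = 0.00163). Sectm1a was higher in LCD KO than in WT in batches 1 and 2 (4.52, adjusted p = 0.000535). It was not among the genes tested in batch 1 alone, so no value without LCD KO 4 and 5 can be given. Dcn had 16 and 17 counts against 1 and 0 and Cntnap5a, a neurexin-related protein, 26 and 4 against 0 and 1. Their ratios were 37.8 (95% exact counting interval 6.33 to 1540) and 34.4 (95% exact counting interval 5.72 to 1400). Both lost the call without LCD KO 6 or either labelled Tet3 KO library (adjusted p up to 0.184 and 0.569), Trim6 without labelled Tet3 KO 1 (0.102) and Sectm1a without labelled Tet3 KO 2 (0.0516).

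**Figure D3:**
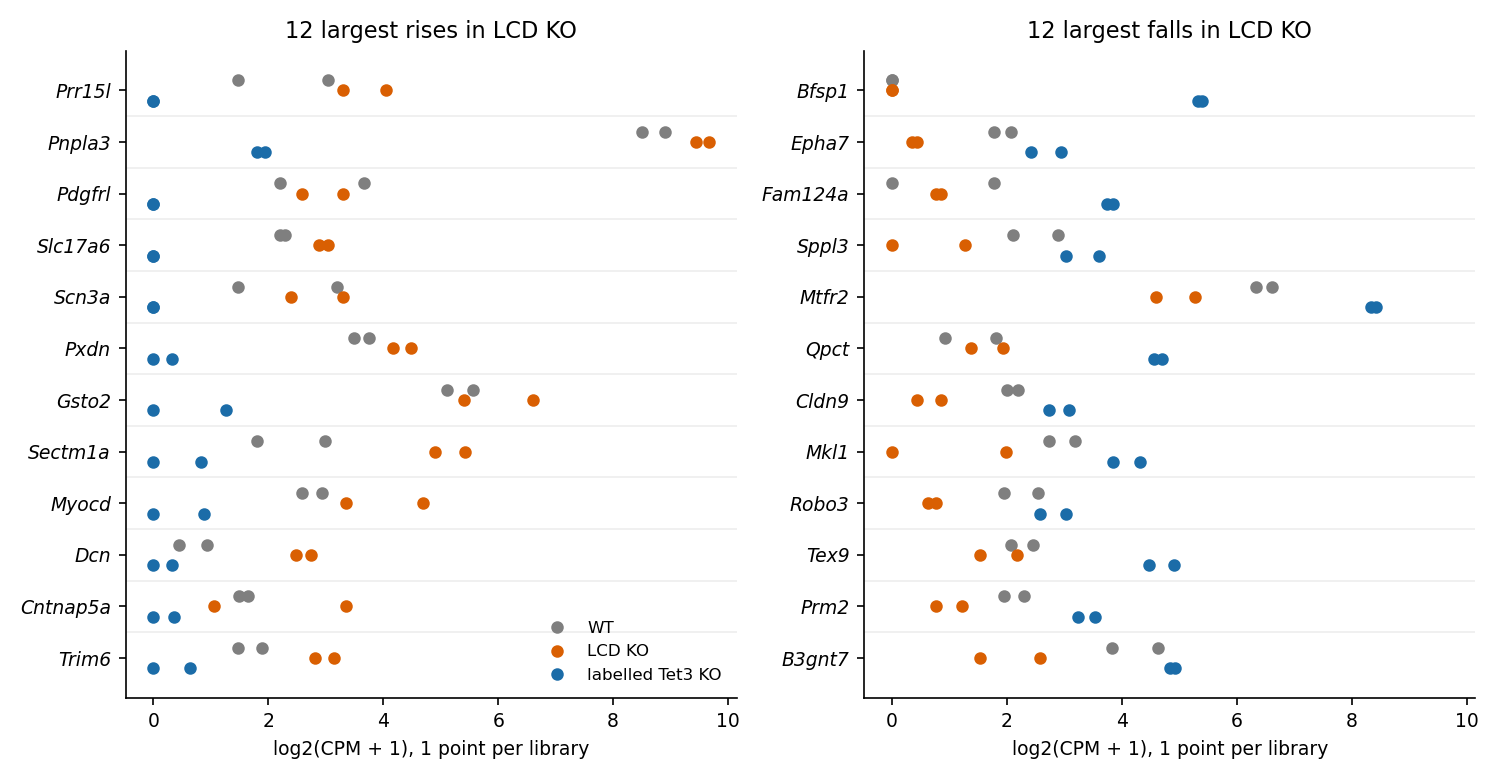
Log2(CPM + 1) of the 12 largest rises (left) and 12 largest falls (right) in LCD KO, with 1 point for each WT, LCD KO and labelled Tet3 KO library. On the left the labelled Tet3 KO libraries sit near 0, apart from Pnpla3 at a low level, and WT lies towards LCD KO except for Sectm1a and Dcn; on the right Bfsp1 is at 0 in WT and LCD KO, and Mtfr2 has WT between the groups.

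The largest fall was that of Bfsp1, which encodes filensin, an intermediate filament protein known from the eye lens. It had 160 and 141 counts (41.1 and 39.2 CPM) in the labelled Tet3 KO and 0 in LCD KO, at least 87.5-fold lower in LCD KO (adjusted p = 2.01e-06). WT and Dnmt3a KO were also at 0, while DKO stood at 31.4 and 34 CPM, above Dnmt3a KO by the test (adjusted p = 1.14e-05). In the other batches, on the scaling of 22 libraries, Bfsp1 was at 0 in LCD KO 1 to 3 and in WT 4, at 1.03 to 1.93 CPM in WT 1 to 3 and at 10.3 and 9.98 in the libraries labelled LCD KO 4 and 5 and 13, 16.8 and 6.74 in HD mutant 1 to 3. Its presence thus followed no single genotype label across batches. Mtfr2, a regulator of mitochondrial fission, was the most abundant of the 12 falls: 23.1 and 37.6 CPM in LCD KO against 322 and 343 (log2 fold change -3.44 ± 0.28, adjusted p = 6.24e-07). WT lay between, at 96.5 and 79.5 CPM, and the labelled Tet3 KO was above it (adjusted p = 0.000304) while LCD KO was below it (adjusted p = 0.00977). Dnmt3a KO stood at 269.5 and 216 CPM and DKO at 581 and 418. Within batch 3 Mtfr2 was thus higher in the groups with low Dnmt3a than in WT and LCD KO. WT differed between batches: on the scaling of 22 libraries WT 1 to 4 were at 143 to 248 CPM and WT 5 and 6 at 84.1 and 71.3. On that scaling Dnmt3a KO was at 237 and 194. A link of Mtfr2 to Dnmt3a was not tested. In batches 1 and 2, LCD KO was again below WT (-1.73 ± 0.22, adjusted p = 0.000136), as in batch 1 alone (-2.09 ± 0.18, adjusted p = 2.25e-06).

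Several further falls marked genes that were near the WT level in LCD KO and above it in both the labelled Tet3 KO and Dnmt3a KO. Qpct, glutaminyl cyclase, was at 2.84 and 1.61 CPM in LCD KO, 22.6 and 25 in the labelled Tet3 KO, 2.49 and 0.903 in WT and 14.4 and 25.3 in Dnmt3a KO (log2 fold change -3.44 ± 0.50, adjusted p = 0.000539). Tex9, a testis-expressed gene, was at 3.55 and 1.88, 21.3 and 28.9, 3.2 and 4.52 and 26 and 35.7 CPM in the same order (log2 fold change -3.23 ± 0.43, adjusted p = 0.000216). DKO was lower than Dnmt3a KO for Tex9, at 6.79 and 4.58 CPM (adjusted p = 0.0036). Fam124a was at 0.71 and 0.806 CPM in LCD KO and 12.3 and 13.3 in the labelled Tet3 KO, with WT at 0 and 2.41 (log2 fold change -4.0 ± 0.73, adjusted p = 0.00374). B3gnt7, a glycosyltransferase, had the opposite placement: WT at 23.9 and 13.2 CPM lay towards the labelled Tet3 KO at 29.5 and 27.5, and LCD KO was at 4.97 and 1.88 (log2 fold change -3.11 ± 0.43, adjusted p = 0.000351). Mkl1, a coactivator of serum response factor like Myocd, was at 0 and 2.96 CPM against 19 and 13.3 (log2 fold change -3.28 ± 0.61, adjusted p = 0.00479). The directions of Mkl1 and Myocd were opposite. The other 5 of the 12 were low genes that lost the call in 2 to 4 of the fits without 1 compared library, with adjusted p up to 0.148. Prm2, a protamine of sperm chromatin, was at 0.71 and 1.34 CPM against 8.47 and 10.6 (adjusted p = 0.00769). Epha7, an ephrin receptor, had a ratio of 17.9 (95% exact counting interval 4.64 to 153), and Cldn9, a claudin, Robo3, a guidance receptor, and Sppl3, an intramembrane protease, had log2 fold changes of -3.36, -3.24 and -3.79.

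In absolute terms the largest gains in mean CPM in LCD KO were, after Pnpla3, those of Ooep, Tuba3a, Rpl37rt, Bcap31 and Cd7. Ooep, a subunit of the subcortical maternal complex of the egg, was at 1504 and 1470 CPM in LCD KO and 693 and 727 in the labelled Tet3 KO (log2 fold change 1.07 ± 0.21, adjusted p = 0.00751). WT, at 1463 and 1286 CPM, lay with LCD KO. In batches 1 and 2 Ooep was lower in LCD KO than in WT (log2 fold change -0.42, adjusted p = 0.0237), a call lost in batch 1 alone (-0.32, adjusted p = 0.0827). Rpl37rt, a retrotransposed copy of a ribosomal protein gene, was at 384 and 357 CPM against 3.59 and 6.39 (log2 fold change 6.21 ± 0.30, adjusted p = 2.87e-10), with WT at 296 and 248, Dnmt3a KO at 87.1 and 74.4 and DKO at 165 and 194. Its value is uncertain, because near-identical ribosomal protein copies can share its reads. Bcap31, a chaperone of the endoplasmic reticulum, was at 528 and 380 CPM against 129 and 122 (log2 fold change 1.86 ± 0.25, adjusted p = 0.000239), and the WT libraries at 438 and 278 were on the LCD KO side. Cd7, best known as a lymphocyte surface protein, was at 456 and 366 CPM against 114 and 101 (log2 fold change 1.94 ± 0.23, adjusted p = 9.78e-05), and WT at 222 and 178 lay between. Tuba3a, an alpha tubulin with near-identical copies, was at 1354 and 1256 CPM against 610.2 and 541 (log2 fold change 1.18 ± 0.27, adjusted p = 0.018). The largest losses of CPM were more modest in fold. Mdm4, an inhibitor of p53, was at 1002 and 975 CPM in LCD KO and 2355 and 2244 in the labelled Tet3 KO (log2 fold change -1.22 ± 0.21, adjusted p = 0.00275). WT, at 2078 and 1885, lay with the labelled Tet3 KO, and Mdm4 was lower in LCD KO than in WT also in batches 1 and 2 (adjusted p = 0.00912; 0.000831 in batch 1 alone). Me1, the cytosolic malic enzyme that supplies NADPH, was at 153 and 352 CPM against 809 and 902 (log2 fold change -1.76 ± 0.32, adjusted p = 0.00529). Here WT, at 204 and 302, and DKO, at 324 and 252, lay with LCD KO, and Dnmt3a KO, at 892 and 1074, with the labelled Tet3 KO. Zc3h6, a zinc finger protein, was at 326 and 274 CPM against 735 and 648 (adjusted p = 0.0037), and Kpna2, a nuclear import receptor, at 1077 and 905 against 1768 and 1585 (adjusted p = 0.0412). Gm15698 and Gm10436 fell by 0.85 and 0.95 on the log2 scale (adjusted p = 0.0386 and 0.043). Zc3h6, Ooep, Tuba3a, Kpna2, Gm15698 and Gm10436 each lost the call in 2 to 4 of the fits without 1 compared library (adjusted p up to 0.317), and Me1 in fits on other sets of libraries (0.0525 to 0.183).

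Gene groups were then read against the background of 2.28% called higher and 1.75% called lower. Of 31 tested genes of the DNA methylation machinery, Dnmt3a was called higher and Tet3 lower, and 29 did not pass. Tet1 and Tet2, the other dioxygenases, were low throughout, at 12.8 and 5.37 and 3.91 and 4.57 CPM in LCD KO and 3.08 and 3.06 and 6.16 and 9.45 in the labelled Tet3 KO. Their log2 differences were 1.53 ± 0.52 and -0.86 ± 0.49 (adjusted p = 0.117 and 0.4). The cofactor Dnmt3l was at 207 and 198 CPM against 205 and 157 (adjusted p = 0.785), and Dnmt1, the maintenance methyltransferase, at 693 and 721 against 1005 and 976 (adjusted p = 0.303). Uhrf1, its partner, was at 395 and 676 against 555 and 783 (adjusted p = 0.67). None of these 5 differed beyond the spread by the test. Among 37 tested Kruppel-like factors and genes of TGF-beta signalling and response, Klf10 alone was called. The members with the next smallest p were Smurf2, a ubiquitin ligase of the receptor pathway (log2 fold change -0.88 ± 0.25, adjusted p = 0.0561), and Smad5, a signal transducer (-1.95 ± 0.62, adjusted p = 0.089), and Klf11, a relative of Klf10, had 0.74 ± 0.26 (adjusted p = 0.126). DESeq2 also called Smurf2. These uncalled members of the 2 lists were named after their values were seen. In the list of 41 triacylglycerol and lipid droplet genes, Pnpla3 rose and Elovl5, a fatty acid elongase, fell (158 and 128 CPM against 329.5 and 222, log2 fold change -0.95 ± 0.25, adjusted p = 0.0388), and 39 did not pass. Elovl5 lost the call in 7 alternatives, among them the fits without LCD KO 6, LCD KO 7 or labelled Tet3 KO 1 (adjusted p up to 0.419).

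The list of 50 germline genes that are sensitive to DNA methylation had 9 called, 6 higher and 3 lower, or 18.0% against 4.02% of all genes tested; its median log2 fold change was -0.00319, against 0.00182 over all. The list was drawn up with earlier results of these data known. Tuba3b, a tubulin of the germline with near-identical copies, was at 57.5 and 76.3 CPM in LCD KO and 7.44 and 6.12 in the labelled Tet3 KO (log2 fold change 3.30 ± 0.36, adjusted p = 3.41e-05). WT, at 74 and 98.8 CPM, was high and Dnmt3a KO, at 15.7 and 7.05, and DKO, at 3.4 and 5.34, were low. Mael, a protein of piRNA-based transposon control, was at 259.6 and 197 CPM against 75.7 and 74.2 (log2 fold change 1.6 ± 0.24, adjusted p = 0.000967), with WT at 211 and 157. Hormad1, a protein of the meiotic chromosome axis, was at 44.7 and 36.3 CPM against 12.1 and 5.56 (log2 fold change 2.18 ± 0.34, adjusted p = 0.00117), with WT at 42 and 35.5 and Dnmt3a KO at 44.2 and 32.6. The synaptonemal complex protein Sycp1 was at 45.5 and 40 CPM against 17.2 and 14.5 (adjusted p = 0.0153), and Majin, which ties telomeres to the nuclear envelope, at 6.75 and 8.06 against 0.77 and 0.556 (adjusted p = 0.0129). The sixth, Tuba3a, is given above. The other 3 went down in LCD KO. Pdha2, the testis form of a pyruvate dehydrogenase subunit, was at 1.42 and 1.61 CPM against 10.5 and 14.4 (log2 fold change -3.0 ± 0.55, adjusted p = 0.00411). Dmc1, the meiotic recombinase, was at 0.71 and 1.07 CPM against 6.16 and 8.34 (log2 fold change -2.94 ± 0.62, adjusted p = 0.0109), with WT at 7.83 and 7.23. Tdrd5, a piRNA pathway protein, was at 137 and 140 CPM against 295 and 297 (log2 fold change -1.09 ± 0.23, adjusted p = 0.0112), with WT at 139 and 175. With 1 of the 4 libraries left out, 4 to 6 of 53 tested members were called, against 1.15% to 1.93% of all genes. Hormad1, Mael, Pdha2 and Tuba3b were among them each time. Majin and Tdrd5 lost the call without any 1 of the 4 libraries (adjusted p up to 0.154 and 0.104), Sycp1 in each of those fits but the one without LCD KO 7, and Tuba3a in the same way (up to 0.185). Dmc1 kept it without labelled Tet3 KO 1 alone of the 4 (adjusted p up to 0.108), and with all LCD KO libraries and a batch term it was at -1.42 (adjusted p = 0.119). In batch 1 alone Hormad1 had the opposite sign, lower in LCD KO than in WT (-1.10 ± 0.38, adjusted p = 0.0476).

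Of 59 oocyte and maternal-effect genes, Ooep rose and Kit fell (3.39%, near the 4.02% of all genes tested), with a median log2 fold change of -0.23. Kit, the receptor through which granulosa cells sustain oocyte growth, was at 107 and 116 CPM in LCD KO and 313 and 277 in the labelled Tet3 KO (log2 fold change -1.40 ± 0.28, adjusted p = 0.00673). WT, at 218 and 242 CPM, lay between the groups, and in batches 1 and 2 Kit was lower in LCD KO than in WT (adjusted p = 0.000197; 0.000534 in batch 1 alone). In the list of 27 genes of oocyte and granulosa communication, Kit and Tmem47, a junction-associated membrane protein, were lower and 25 did not pass. Tmem47 was at 4.97 and 3.76 CPM against 26.7 and 24.2 (log2 fold change -2.55 ± 0.38, adjusted p = 0.000661), with WT at 45.9 and 30.1 on the side of the labelled Tet3 KO. Tmem47 was lower in LCD KO than in WT also in batches 1 and 2, with a log2 fold change of -4.04 ± 0.26 (adjusted p = 3.29e-08; -4.1 ± 0.34 in batch 1 alone). Of 56 genes of maternal mRNA storage and decay, Celf1, an RNA-binding protein that promotes decay, was called lower (78.8 and 78.5 CPM against 172 and 134, log2 fold change -0.96 ± 0.23, adjusted p = 0.0225). Of 63 genes of meiotic maturation and the spindle 0 were called, with 7 at an unadjusted p below 0.05. The 2 with the smallest p were Cdc25c, at 45.8 and 30.6 CPM against 23.6 and 20.6 (adjusted p = 0.17, but 0.0433 with all LCD KO libraries and a batch term and 0.0413 without LCD KO 4 and 5 there), and Bub1b, at 359 and 489 against 582 and 660.4 (adjusted p = 0.214). Of 15 genes of 2-cell genome activation 0 were called, with 2 at an unadjusted p below 0.05, Dppa2 and Arg2 (adjusted p = 0.26 and 0.27). DESeq2 called 0 in both of these lists. Kit lost the call without LCD KO 6 or labelled Tet3 KO 1 (adjusted p up to 0.0751) and in the fit over 22 libraries (0.102), and Celf1 without any 1 of the 4 libraries (up to 0.284).

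Of 26 imprinted genes with maternal methylation 0 were called by edgeR and 0 by DESeq2, and 0 had an unadjusted p below 0.05. The 2 with the smallest p were Blcap and Mest, which is expressed from the paternal allele after fertilisation. Blcap was at 134 and 141 CPM against 180.4 and 190.1 and Mest at 145 and 139.7 against 199 and 173 (adjusted p = 0.327 and 0.378). Of 64 histone and chromatin modifiers Kdm2b, a demethylase with a domain that binds unmethylated CG, was lower (39.1 and 46.8 CPM against 88.8 and 83.7, log2 fold change -1.0 ± 0.25, adjusted p = 0.0271), and 63 did not pass. Of 27 base excision repair genes Mutyh, a glycosylase that removes misincorporated adenine, was lower (13.8 and 11.8 CPM against 42.1 and 28.9, log2 fold change -1.47 ± 0.31, adjusted p = 0.00963). Kdm2b lost the call without any 1 of the 4 libraries (adjusted p up to 0.241) and in the fit over 22 libraries (0.409), and Mutyh in each of those 4 fits but the one without labelled Tet3 KO 2 (up to 0.170).

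The p53 and DNA damage list had 5 of 50 tested members called (10%, against 4.02% of all genes tested), 3 higher and 2 lower. Besides Mdm4, Ccng2, an unconventional cyclin, was lower, at 8.88 and 6.72 CPM against 35.2 and 31.7 (log2 fold change -2.11 ± 0.33, adjusted p = 0.00105), with WT at 40.6 and 31.3. Rad51b, a recombination paralog, was at 153 and 104 CPM against 22.1 and 15.8 (log2 fold change 2.76 ± 0.58, adjusted p = 0.0382), with WT at 227 and 154 and Dnmt3a KO at 40 and 17.3. The p53 targets Ccng1 and Sesn1 were higher, at 17.4 and 14.8 CPM against 2.31 and 6.39 (adjusted p = 0.0376) and 14.6 and 13.2 against 3.34 and 4.72 (adjusted p = 0.0261). The falls of Ccng2 and Mdm4 were called with any 1 of the 4 libraries left out, and the rises were not: 0 were called without LCD KO 6, LCD KO 7 or labelled Tet3 KO 1, and only Ccng1 without labelled Tet3 KO 2. Among 30 apoptosis genes Bik, a BH3-only protein that opposes Bcl2, was higher, at 187 and 145 CPM against 37.2 and 27.5 (log2 fold change 2.36 ± 0.29, adjusted p = 0.000125). WT was between, at 92.5 and 79.2 CPM, as were Dnmt3a KO at 102 and 60.3 and DKO at 69.3 and 102.

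Of 43 glutathione, antioxidant and metallothionein genes, 3 were higher and 2 lower (11.6% called, against 4.02% of all genes tested). The glutathione transferases Gstp1, Gsta4 and Mgst3 were higher, at 87.7 and 63.7, 328 and 197 and 506 and 456 CPM in LCD KO against 34.4 and 29.7, 115 and 109.5 and 235 and 204 (adjusted p = 0.0178, 0.0109 and 0.0282). Prdx6, a peroxiredoxin, and Hmox2, a heme oxygenase, were lower, at 3.55 and 6.72 and 21.3 and 23.9 CPM against 17.4 and 18.9 and 51.8 and 39.8 (adjusted p = 0.0133 and 0.0388). These calls depended on single libraries: 0 of the list were called without LCD KO 6 or without either labelled Tet3 KO library, and 3 without LCD KO 7. In the unfolded protein and heat shock list of 48, 2 were called (4.17%, near the 4.02% of all genes tested). Hspb1, a small heat shock protein, and Xbp1, a transcription factor of the unfolded protein response, were higher. Hspb1 was at 22.7 and 28.2 CPM against 6.67 and 5.56 (log2 fold change 2.05 ± 0.39, adjusted p = 0.00496) and Xbp1 at 10.3 and 8.6 against 2.57 and 3.33 (log2 fold change 1.67 ± 0.44, adjusted p = 0.0388). Among libraries outside the comparison, both were higher in DKO than in Dnmt3a KO, at 22.1 and 39.3 CPM against 6.6 and 4.13 for Hspb1 and 24.6 and 17.6 against 4.95 and 4.62 for Xbp1 (adjusted p = 0.0036 and 0.0101). In the unfolded protein and heat shock list DESeq2 called Hspb1 and Dnajb9 but not Xbp1 (adjusted p = 0.056 for Xbp1 by DESeq2). Xbp1 also lost the call in a fit of the 4 compared libraries alone (adjusted p = 0.0507). Of 75 cytosolic ribosomal protein genes Rps3a1 and Rpl41 were higher (adjusted p = 0.0181 and 0.0215), with a median of 0.31 over the list. Near-identical copies make these uncertain. Of 76 nuclear genes of oxidative phosphorylation, Ndufv3, a subunit of complex I, was higher (98.7 and 103 CPM against 37.5 and 43.1, log2 fold change 1.32 ± 0.28, adjusted p = 0.0107), with a median of 0.22 over the list. Xbp1, Rps3a1, Rpl41 and Ndufv3 each lost the call in 2 to 4 of the fits without 1 compared library (adjusted p up to 0.308), and Hspb1 without labelled Tet3 KO 2 (0.0683). Of the 6 tested granulosa markers and the 2 tested markers of blood, immune cells or epithelium, 0 were called by edgeR and 0 by DESeq2. At an unadjusted p below 0.05 these counts were 0 and 1, the latter Epcam (2.84 and 6.72 CPM against 0.513 and 2.22, adjusted p = 0.238).

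**Figure D4:**
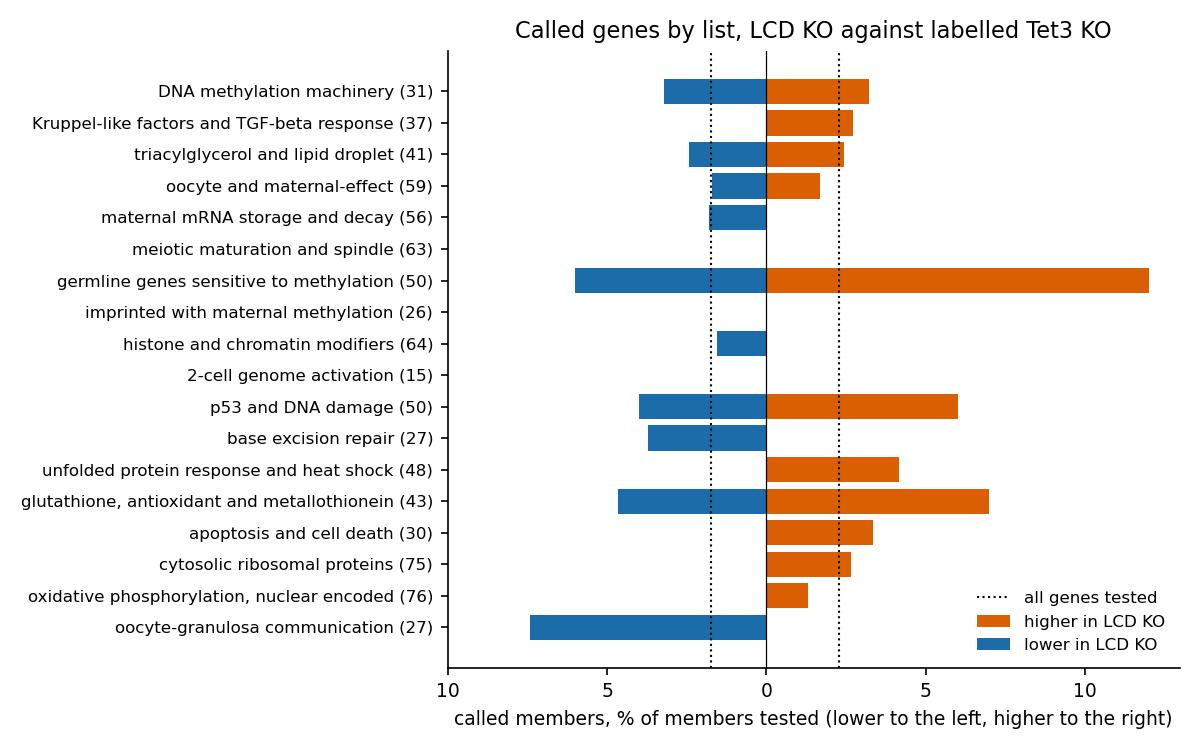
Share of tested members called higher (right) or lower (left) in LCD KO for each gene list, in percent, with the number tested in brackets and dotted lines at the shares over all genes, 2.28% and 1.75%. The list of germline genes, with 6 higher and 3 lower of 50, has the widest bar on the higher side. On the lower side the widest is that of oocyte and granulosa communication, with 2 of 27. The lists of meiotic maturation, imprinted and 2-cell genes have none.

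The called genes were followed in libraries other than the 4 compared. In batches 1 and 2, 5 LCD KO libraries were compared with 4 WT libraries with a term for batch, and 2391 of 9994 genes were called, 11.1% higher and 12.8% lower in LCD KO. Of the 254 genes higher against the labelled Tet3 KO, 230 were measured there; their median log2 fold change was 0.60, against -0.02 over all genes measured in both. In that set 113 were called higher (49.1% of the set and 10.3% of the higher list) and 8 lower (3.48%). Of the 195 lower genes, 174 were measured, with a median of -0.67. In that set 99 were called lower (56.9% of the set and 7.79% of the lower list) and 7 higher (4.02%). Among members called there, most of either set had the sign they had against the labelled Tet3 KO. The reference in batches 1 and 2 is WT, so the 2 contrasts are unlike. Without batch 2, and so without the libraries labelled LCD KO 4 and 5 that had 0 Cre counts, 15.8% of 9420 genes were called higher and 14.4% lower. Of 217 genes of the higher set measured in batch 1, 129 were called higher and 9 lower, with a median of 0.86. Of 166 of the lower set, 100 were called lower and 8 higher, with a median of -0.81. Of the called genes named here, 51 were measured in batches 1 and 2, where 29 were called with the same sign and 2, Myocd and Ooep, with the opposite sign. In batch 1 alone 45 were measured, 30 called with the same sign and 2, Myocd and Hormad1, with the opposite sign. A difference that arises on the labelled Tet3 KO side cannot be seen in LCD KO against WT. In batch 3 itself LCD KO against WT was not called for Ooep (0.11 ± 0.21), Hormad1 (0.06 ± 0.31) or Myocd (1.55 ± 0.55).

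DKO and Dnmt3a KO differ in the LCDf/f allele on a Dnmt3a-deficient background, and their contrast sets no compared library on either side. It came from the same fit as the main contrast and uses the same estimate of spread for each gene. The calls of the 2 contrasts are therefore not independent. DKO against Dnmt3a KO called 99 genes higher in DKO (0.887% of those tested) and 93 lower (0.833%). For the higher set of 254 the median log2 difference was 0.74, against -0.000282 over all genes, and 48 were called higher (18.9% of the set and 48.5% of the 99) and 2 lower. For the lower set of 195 it was -0.57, and 34 were called lower (17.4% of the set and 36.6% of the 93) and 4 higher. The contrast of Dnmt3a KO with WT came from the same fit and also set no compared library on either side. It called 27 genes in each direction (0.242%). Of the higher set, 23 were called lower there (9.06% of the set and 85.2% of the 27) and 2 higher, with a median of -0.33. Of the lower set, 12 were called higher (6.15% of the set and 44.4% of the 27) and 0 lower, with a median of 0.35. These 2 contrasts share the Dnmt3a KO libraries, so their values are given side by side. Pxdn was in both groups: called higher in DKO than in Dnmt3a KO and lower in Dnmt3a KO than in WT.

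**Figure D5:**
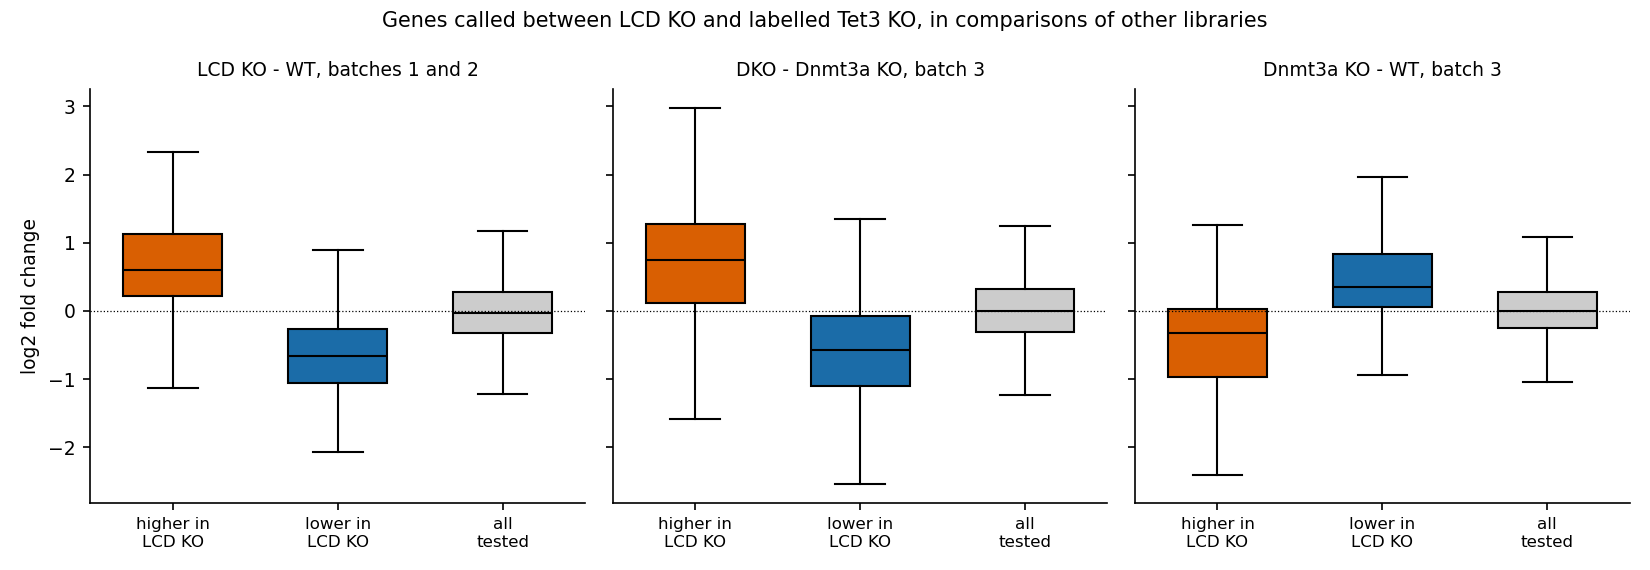
Box plots (median, quartiles, whiskers to 1.5 interquartile ranges, outliers not drawn) of log2 fold changes in 3 comparisons of other libraries, for the genes called higher in LCD KO, those called lower, and all genes tested. The medians are 0.60, -0.67 and -0.02 for LCD KO against WT in batches 1 and 2, 0.74, -0.57 and -0.000282 for DKO against Dnmt3a KO, and -0.33, 0.35 and -0.000587 for Dnmt3a KO against WT.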

How the data were processed

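The deposited table held raw read counts per gene symbol for 26 columns, which the authors had not normalized. The tools, per the submitters' processing notes, were Trim Galore 0.5.0, HISAT2 2.1.0 and featureCounts 1.6.4 and the build was mm9; annotation and strand setting are not given in the sources used here. Reads of near-identical copies and of overlapping or antisense genes therefore cannot be assigned with certainty. The 92 ERCC features (1 count in the 10 libraries) were left out.

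The 10 batch 3 libraries were fitted with edgeR 4.0.16 in R 4.3.3 (TMM, filterByExpr by group, robust quasi-likelihood F test, 5 residual degrees of freedom), and p-values were Benjamini-Hochberg adjusted over all genes tested. An adjusted p below 0.05 is a call, and every adjusted p comes from this fit unless another is named. Values after ± are standard errors. The 5 LCD KO and 4 WT libraries of batches 1 and 2 were fitted apart, with 6 residual degrees of freedom. The test was checked on simulated data, with a spread set by level. It called 32 of 100 genes changed 2-fold, 85 of 100 changed 4-fold and 4 of 10960 unchanged genes. A gene that was not called can thus still differ by 2-fold. Alternatives were DESeq2 1.42.0, other scalings, filters, sets of libraries and leaving out each library.

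Named genes were the 4 markers, the 12 largest rises and falls with at least 5 CPM, separate groups and a regular symbol (not Gm, Rik, LOC, Olfr, Hist, Mir or Snor names, nor copies of Rps or Rpl genes), the 6 largest gains and losses of mean CPM, up to 3 called members per list and direction (where none was called, the 2 with the smallest p), and the Cre, GFP and metallothionein features. Members and lists were chosen with earlier results of these data known. Promoter windows were from RefSeq (GRCm38.p6).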

Additional observations from a re-analysis of the deposited data

Results flagged for a closer look

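In the 4 WT libraries of batches 1 and 2, WT 4 lay apart from the other 3 for a pair of the marker genes. Dnmt3a was at 517 CPM in WT 4, above the other 3, and Pnpla3 was at 359 CPM, below the other 3, each with a gap to its nearest neighbour larger than Dixon's 95% limit. WT 4 was the 1 WT library of batch 2. On the common scaling of 22 libraries, the other 5 libraries of batch 2 lay on the same side: Dnmt3a was at 420 to 729 CPM in them and 224 to 272 in the 6 libraries of batch 1, and Pnpla3 at 397 to 513 and 612 to 1370. Chance marks about 5% of groups, and 8 were looked at. These libraries were not part of the comparison of LCD KO with the labelled Tet3 KO.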

How the results depend on the processing

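The 4 markers kept their call and direction in every alternative run. The count of 449 called genes (254 higher, 195 lower) became 696 (328 lower) with no filter on low counts, 895 (474 higher, 421 lower) with all LCD KO libraries and a batch term, 911 (487 higher, 424 lower) when LCD KO 4 and 5, with 0 Cre counts, were left out of that fit, an alternative chosen after seeing the data, and 391 of those called were higher in the fit over 22 libraries. Leaving out 1 library gave 134 to 571 calls, 65 to 326 higher and 63 to 245 lower. No paired analysis was possible because the compared libraries carry the numbers 6 and 7 against 1 and 2. For LCD KO against WT in batches 1 and 2, 2391 calls became 104 without a batch term and 1569 with a replicate block; same-numbered libraries of batch 1 did not deviate together (r = -0.0234, -0.0235 and -0.115), so the numbers do not pair them. DKO against Dnmt3a KO called 305 genes over 22 libraries against 192, and Dnmt3a KO against WT called 88 with DESeq2 against 54. Among uncalled genes that changed sign, Mt1 was at -0.00144 with no filter and -0.159 to 0.197 with 1 library left out, Kitl at -1.57 to 0.0997, Cyp11a1 at -0.0795 to 0.773 and Ms4a1 at -0.00117 to 0.167. The cause was not tested. With 2 libraries per group and 1 count worth 0.243 to 0.413 CPM, folds of genes of a few CPM are imprecise.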

Other observations

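The neighbours of 6 of the most changed genes, picked after their values were seen, were looked up in gene order (RefSeq, GRCm38.p6), taking the 2 nearest tested protein-coding genes on either side. Of 24 such neighbours 4 were called, against 4.02% of all genes tested. Beside Pnpla3, Sult4a1, a sulfotransferase, averaged 44.0 CPM in LCD KO, 11.6 in the labelled Tet3 KO and 26.4 in WT (log2 fold change 1.92 ± 0.30, adjusted p = 0.00112). Samm50, a protein of the mitochondrial outer membrane that lies next to Pnpla3, averaged 80.7, 38.1 and 57.7 CPM in the same order (1.08 ± 0.25, adjusted p = 0.0153). Pnpla5, between Sult4a1 and Pnpla3 among tested genes, averaged 0.893 CPM against 2.99 (adjusted p = 0.283). Beside Gsto2, Cfap58, a protein of the sperm flagellum, averaged 31.1 CPM in LCD KO, 8.54 in the labelled Tet3 KO and 17.3 in WT (1.85 ± 0.38, adjusted p = 0.00794), and Gsto1 averaged 2.50 against 0.267 (adjusted p = 0.156). Sppl3, one of the 12 largest falls, was the neighbour of Rpl37rt, which rose. None of the 4 neighbours each of Bfsp1, Mtfr2 and Pxdn was called, with adjusted p of at least 0.0751.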
